A study of Rattus norvegicus with 12 samples.

Results

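The genes described here carry sodium, potassium, and calcium ions across the cardiomyocyte sarcolemma. They are the 3 Na/Ca exchangers Slc8a1, Slc8a2, and Slc8a3, the plasma membrane calcium pumps Atp2b1, Atp2b2, and Atp2b4, the Na/K pump β1 subunit Atp1b1, and the pump regulator Fxyd1. They were chosen by name, with earlier results of these data known. The study itself lists Slc8a1 among the genes raised by NR4A2 in the same experiments. All transcript rows under these names were taken, which gave 16 of 18752 rows and 8 of 17301 gene names; 9 of the rows belong to Slc8a1. All 8 genes were above 0 in every sample and were tested among 10950 genes.

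Adult rat ventricular myocytes (ARVMs), isolated from hearts of male Sprague-Dawley rats and kept in culture medium with butanedione monoxime, a blocker of contraction, received 1 of 2 recombinant adenoviruses at a multiplicity of infection (MOI) of 50. Ad-h-NR4A2 carries the full-length human cDNA of NR4A2, an orphan nuclear receptor, driven by the CMV promoter, and Ad-GFP encodes enhanced green fluorescent protein. Both groups therefore carry a virus, and cells without one were not sequenced. RNA was sequenced 48 h later from 6 samples per group, numbered 24 to 29 in both, and the study describes 6 independent experiments with myocytes of different rats. FPKM, which relate the fragments on a transcript to its length in kilobases and to the depth of the sample, were calculated by the authors with Cufflinks for RefSeq transcripts on the rat genome Rn5.

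In a beating cardiomyocyte, the Na/Ca exchanger removes most of the calcium that enters at each beat, taking up sodium for every calcium ion it exports. The Na/K pump, built of a catalytic α subunit, a β subunit needed for folding and delivery to the membrane, and a small FXYD protein, expels that sodium again and so sets the gradient on which the exchanger runs. Plasma membrane calcium pumps (PMCA) export calcium at the cost of ATP and carry a minor part of the calcium flux of the ventricular myocyte.

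Sequencing depth recovered from the low FPKM values was 18800000 to 28000000 fragments per sample. Nr4a2 lay between 0.626 and 1.40 FPKM in the Ad-GFP samples and between 445 and 592 in the Ad-h-NR4A2 samples. Reads were aligned to the rat genome, so that fragments of the human cDNA that align there cannot be told apart from those of the rat gene. The summed FPKM of 8 cardiomyocyte markers was 29824 to 36875 in Ad-GFP and 26047 to 31336 in Ad-h-NR4A2 samples, and 3 of the markers (Mybpc3, Myh7, Ryr2) fell, where 15.2% of all genes tested changed by the limits given in the next paragraph. Sums were 9.05 to 30.3 against 5.82 to 26.6 for 7 fibroblast markers, of which Col1a2 was listed at 0 throughout, 7.69 to 21.99 against 8.88 to 23.3 for 6 endothelial markers, 11.7 to 24.3 against 8.78 to 21.0 for 6 smooth muscle and pericyte markers, and 2.25 to 4.08 against 1.28 to 2.59 for 7 nerve and glia markers, of which Snap25 was listed at 0. In these 4 lists Col3a1, Myh11, and Tubb3 fell and Egfl7 rose, among 6 fibroblast, 6 endothelial, 5 smooth muscle and pericyte, and 4 nerve and glia genes tested. The summed level of the macrophage list was 6.07 to 17.3 FPKM in Ad-GFP and 38.9 to 45.5 in Ad-h-NR4A2 samples, ranges that do not overlap, and of 3 of its 5 genes that were tested Cd14 and Csf1r rose. What these markers contribute to the differences described below was not tested, and in RNA from whole cultures fewer cells of a type and less RNA per cell cannot be told apart.

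Of the 8 genes, 1 was differentially expressed, Slc8a1, which rose. A gene was counted as differentially expressed when its adjusted p was under 0.05 and its mean FPKM differed by 1.5-fold or more; among all genes tested, 15.2% met both limits, 7.94% as a rise. By adjusted p alone, Slc8a1 and Atp2b1 were higher and Fxyd1 was lower, which makes 3 of 8 beside a background of 40.9%. The median log2 fold change of the 8 genes was -0.069, and that of all genes tested was -0.025.

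**Figure D1:**
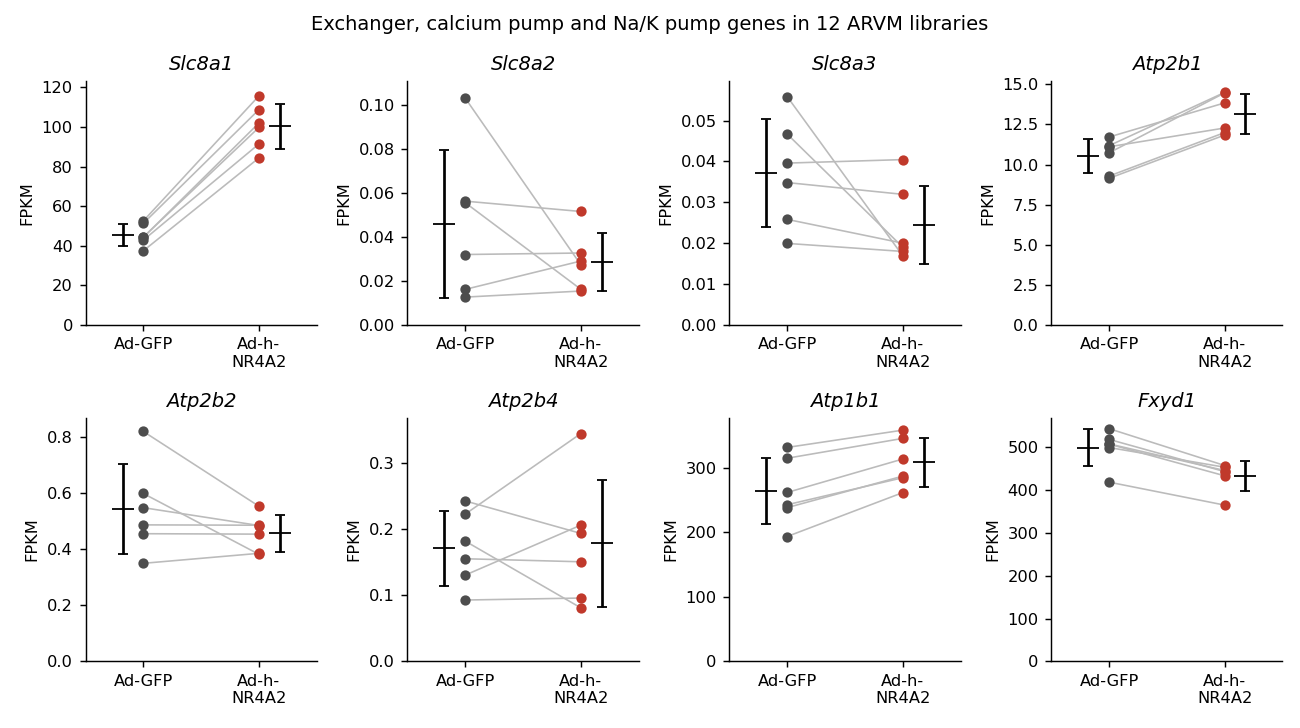
FPKM of the 8 genes in each of the 12 libraries, on a linear axis from 0 with its own scale for each gene. Points are samples, grey lines join samples of the same number, and bars beside the points give the mean ± SD of 6 samples; the Slc8a1 values of Ad-h-NR4A2 samples lie between 84.4 and 115.7, whereas no Ad-GFP value exceeds 52.5.

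Slc8a1 encodes NCX1, the Na/Ca exchanger of cardiac muscle, and lies on chromosome 6 from 4217555 to 4481756 in Rn5. Its main transcript, NM_019268 with 6239 nucleotides, had 42.8, 44.2, 44.3, 52.5, 37.3, and 51.2 FPKM in Ad-GFP samples 24 to 29. In Ad-h-NR4A2 samples of the same numbers it had 91.4, 102, 99.8, 115.7, 84.4, and 108.8 FPKM. The groups did not overlap, with 84.4 FPKM as the lowest Ad-h-NR4A2 value and 52.5 as the highest Ad-GFP value.

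Mean Slc8a1 FPKM thus rose from 45.4 ± 5.63 (SD, n = 6) to 100.3 ± 11.4 (SD, n = 6), a ratio of 2.21. On the log2(FPKM + 0.1) scale the fold change was 1.14 (SE 0.09, 95% interval 0.95 to 1.34), and limma with Benjamini-Hochberg adjustment gave an adjusted p of 4.77e-07. The exact permutation test, two-sided and with 924 ways to split the samples evenly, gave p = 0.00216, the smallest it can give. Groups without overlap were found in 21.5% of all genes tested, in 10.9% with the higher values under Ad-h-NR4A2. Within same-numbered pairs the ratio was 2.14, 2.31, 2.25, 2.21, 2.26, and 2.12 for numbers 24 to 29. The increase was therefore of nearly one size in all 6 pairs, although the level itself differed between pairs, with number 28 lowest and number 27 highest in both groups.

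The annotation lists 9 Slc8a1 transcripts at this locus, all between 6131 and 6239 nucleotides long, so that the other 8 are shorter than NM_019268 by 3 to 108 nucleotides. NM_001270776, shorter by 3 nucleotides, was the only other transcript above 0.01 FPKM in every sample. It had 1.80, 1.08, 0.954, 0.793, 1.29, and 1.46 FPKM in Ad-GFP samples 24 to 29, and 1.97, 3.59, 2.62, 2.70, 2.62, and 4.27 in Ad-h-NR4A2 samples. All Ad-h-NR4A2 values were above all Ad-GFP values, the nearest being 1.97 and 1.80, both of number 24.

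When each transcript was fitted by itself, 14.7% of 11667 transcripts were differentially expressed, and of the 9 Slc8a1 transcripts these were NM_019268 and NM_001270776. Mean FPKM of NM_001270776 rose from 1.23 ± 0.367 to 2.96 ± 0.825 (SD, n = 6), and the log2 fold change was 1.21 with an SE of 0.21 (limma, adjusted p = 7.68e-04). In that fit NM_019268 had a limma adjusted p of 2.05e-06. Fragments shared by transcripts that differ in so few nucleotides are divided by the estimate of Cufflinks, and the 2 values are not independent of each other.

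The 7 remaining Slc8a1 transcripts were at or above 0.01 FPKM in at most 3 Ad-GFP and at most 4 Ad-h-NR4A2 samples each. Their values ranged from 3.05e-18 to 1.61 FPKM, and 0 of 7 were differentially expressed by themselves in limma, with or without the replicate block, and 0 had an unadjusted p below 0.05. NM_001270774 reached 0.01 FPKM most often, in 3 Ad-GFP and 4 Ad-h-NR4A2 samples. Added together, the 7 amounted to 0.601 ± 0.548 FPKM in Ad-GFP and 1.22 ± 0.547 FPKM in Ad-h-NR4A2 samples (SD, n = 6).

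**Figure D2:**
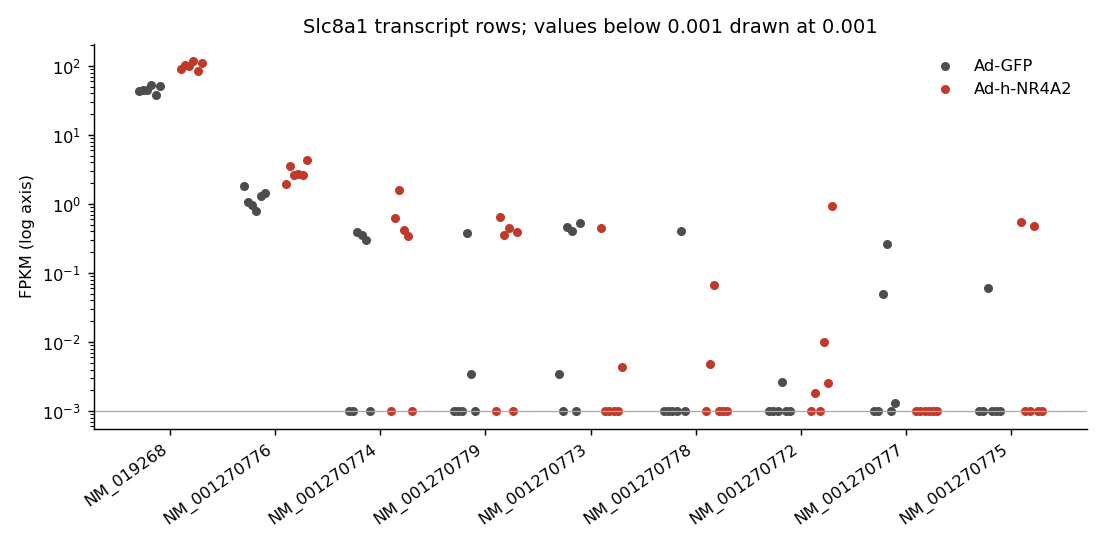
FPKM of the 9 Slc8a1 transcripts on a log axis, each point 1 sample, in the order 24 to 29 from left to right within each group; values below 0.001 FPKM are drawn at 0.001. NM_019268 and NM_001270776 are above 0.01 FPKM in all 12 samples, whereas the other 7 scatter between the lower edge and 1.61.

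The share of the transcripts within the Slc8a1 total was then compared. Summed over the 9 transcripts, Slc8a1 was at 47.2 ± 5.75 FPKM in Ad-GFP and 104.5 ± 12.1 FPKM in Ad-h-NR4A2 samples, again a ratio of 2.21. NM_019268 made up 96.1% ± 0.876 of that sum in Ad-GFP and 96.0% ± 0.747 in Ad-h-NR4A2 samples (SD, n = 6; two-sided exact permutation test, p = 0.898). The share of NM_001270776 was 2.66% ± 0.917 against 2.82% ± 0.651 (p = 0.634 by the same exact test). The other 7 together had 1.24% and 1.15% (p = 0.448, exact). Difference in usage, the log2 ratio of a transcript to the rest of its gene, was 0.0042 for NM_019268 (95% interval -0.40 to 0.40) and 0.062 for NM_001270776 (95% interval -0.46 to 0.59). A usage change was assigned to 1 of the 9 transcripts, beside 4.65% of 1205 transcripts of all genes. That transcript, NM_001270777, reached 0.01 FPKM in 2 Ad-GFP and 0 Ad-h-NR4A2 samples. Its value rests on the pseudocount, since 0 of the 9 had a usage change at a pseudocount of 0.01.

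Slc8a2 encodes NCX2, the exchanger of brain, and lies on chromosome 1 from 79296259 to 79320746. It was near the limit of detection, with 2, 3, 1, 4, 8, and 1 fragments in Ad-GFP samples 24 to 29 and 2, 4, 2, 1, 2, and 1 in Ad-h-NR4A2 samples. That corresponds to 0.0460 ± 0.0337 and 0.0287 ± 0.0132 FPKM (SD, n = 6). The groups overlapped, and the log2 fold change of -0.16 (95% interval -0.50 to 0.18, limma, adjusted p = 0.456) does not separate them.

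Slc8a3 encodes NCX3, known from skeletal muscle and brain, on chromosome 6 from 113051624 to 113244454, a listed interval it shares with Adam4l1. It had 4, 3, 2, 3, 7, and 6 fragments in Ad-GFP samples 24 to 29 and 4, 4, 2, 2, 2, and 2 in Ad-h-NR4A2 samples. Mean FPKM was 0.0371 ± 0.0133 and 0.0244 ± 0.00960 (SD, n = 6), with a log2 fold change of -0.14 (95% interval -0.39 to 0.11, limma, adjusted p = 0.365). A difference was not detectable at this depth for either gene, and both fold changes are held near 0 by the pseudocount, which is larger than most of their values. Slc8a1 therefore accounted for at least 99.6% of the summed FPKM of the 3 exchangers in every sample.

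Atp2b1 encodes PMCA1, the widely expressed form of the calcium pump, on chromosome 7 from 41154017 to 41259749. Ad-GFP samples 24 to 29 had 11.1, 9.14, 9.28, 11.2, 11.7, and 10.7 FPKM, and Ad-h-NR4A2 samples 12.3, 11.8, 12.0, 14.5, 13.8, and 14.5. The lowest Ad-h-NR4A2 value, 11.84, lay just above the highest Ad-GFP value, 11.72, so that the groups touched without overlapping. These values stand for 698 to 1301 fragments in Ad-GFP and 1077 to 1454 in Ad-h-NR4A2 samples.

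Mean Atp2b1 FPKM was 10.5 ± 1.07 in Ad-GFP and 13.2 ± 1.25 in Ad-h-NR4A2 samples (SD, n = 6), a ratio of 1.25. The log2 fold change was 0.32 (SE 0.08, 95% interval 0.14 to 0.50; limma, adjusted p = 0.00656), and the two-sided exact permutation test gave p = 0.00216. Atp2b1 was higher in 6 of 6 pairs, by a ratio of 1.11 to 1.35. The difference passed the adjusted p and stayed below the fold limit of 1.5. The same direction in all 6 pairs was found in 53.2% of genes tested.

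Atp2b2 and Atp2b4, which encode PMCA2, known from neurons and sensory hair cells, and PMCA4, were much lower. Atp2b2 lies on chromosome 4 from 209001178 to 209310124 and had 0.544 ± 0.160 FPKM in Ad-GFP and 0.458 ± 0.0658 in Ad-h-NR4A2 samples (SD, n = 6), or 51 to 111 and 55 to 100 fragments. Its log2 fold change was -0.18 (95% interval -0.52 to 0.16, limma, adjusted p = 0.40). Number 25 was highest in both groups, at 0.821 and 0.554 FPKM, and 5 of 6 pairs were lower under Ad-h-NR4A2.

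Atp2b4 lies on chromosome 13 from 55157902 to 55204205. It had 0.171 ± 0.0563 and 0.178 ± 0.0954 FPKM (SD, n = 6), or 9 to 26 and 8 to 36 fragments, and was higher in 3 pairs and lower in 3. The log2 fold change was 0.00085 (95% interval -0.47 to 0.47; limma, adjusted p = 0.999), an interval that reaches a ratio of 0.721 on one side and 1.39 on the other. Its sign changed with the pseudocount and the scaling, so that no direction is given. Atp2b1 made up 93.6% ± 2.13 of the summed FPKM of the 3 pumps in Ad-GFP and 95.3% ± 1.23 in Ad-h-NR4A2 samples.

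**Figure D3:**
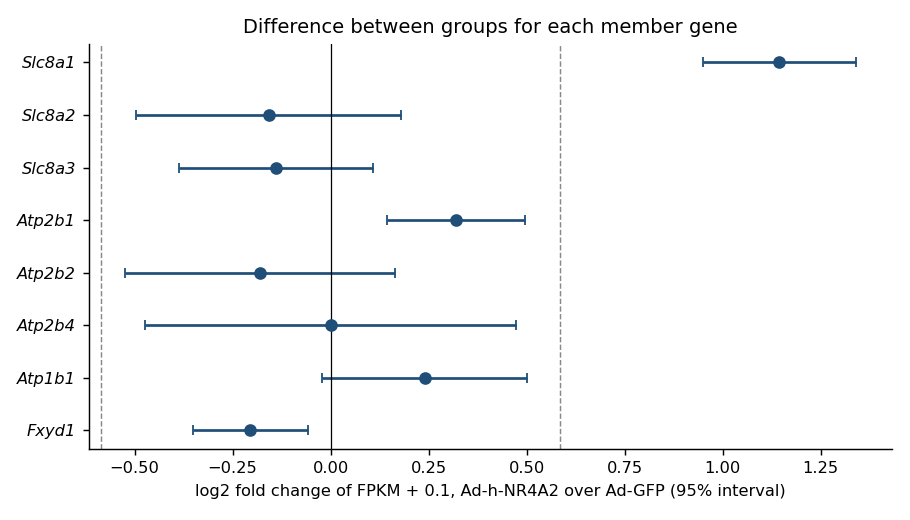
Log2 fold change of FPKM + 0.1 for the 8 genes, Ad-h-NR4A2 over Ad-GFP, with 95% intervals from limma; the solid line marks no difference and the dashed lines a ratio of 1.5 in either direction. The interval of Slc8a1 (0.95 to 1.34) lies wholly beyond the upper dashed line, those of Atp2b1 and Fxyd1 lie to one side of 0 but within the dashed lines, and the other 5 include 0.

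Atp1b1 encodes the β1 subunit, the main β subunit of the cardiac Na/K pump. Its listed interval on chromosome 13, from 87491657 to 87641967, is also that of Nme7. FPKM was 238, 243, 262, 332, 194, and 315 in Ad-GFP samples 24 to 29, and 287, 285, 314, 358, 262, and 346 in Ad-h-NR4A2 samples. The groups overlapped widely, but the Ad-h-NR4A2 sample was the higher one in each pair, with the smallest ratio in number 27 (1.08) and the largest in number 28 (1.35).

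Mean Atp1b1 FPKM was 264 ± 51.4 and 308 ± 37.7 (SD, n = 6), and the log2 fold change of 0.24 (SE 0.12, 95% interval -0.02 to 0.50) did not pass the test without pairing (limma, adjusted p = 0.131; two-sided exact permutation test, p = 0.110). With a replicate block on sample number, its SE was 0.040 and its limma adjusted p 7.03e-04, and by adjusted p alone 4 of the 8 genes then differed, beside a background of 59.4%.

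Fxyd1 encodes phospholemman, which lowers the sodium affinity of the pump until it is phosphorylated, on chromosome 1 from 90639292 to 90643313. It was the most abundant of the 8 genes, with 499.9, 508, 508, 544, 419, and 519 FPKM in Ad-GFP samples 24 to 29 and 454, 434, 446, 458, 365, and 444 in Ad-h-NR4A2 samples. The groups overlapped in 1 sample only, Ad-GFP 28, which lay far below the other Ad-GFP samples, as Ad-h-NR4A2 28 did in its own group. Its transcript has 533 nucleotides, a length at which FPKM depend strongly on the fragment size that Cufflinks assumes.

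Mean Fxyd1 FPKM was 499.7 ± 42.4 in Ad-GFP and 433 ± 34.4 in Ad-h-NR4A2 samples (SD, n = 6), a ratio of 0.867 that stayed within the fold limit. The log2 fold change was -0.20 (SE 0.068, 95% interval -0.35 to -0.058; limma, adjusted p = 0.0278), and the two-sided exact permutation test gave p = 0.0130. All 6 pairs were lower, by a ratio of 0.842 to 0.908. Without pairing, leaving out Ad-GFP sample 25, 26, 27, or 29 raised the limma adjusted p above 0.05, to 0.0515, 0.0524, 0.0606, and 0.0540. Without both samples numbered 28 it was 0.00102. With a replicate block on sample number and all samples, the SE of Fxyd1 was 0.023 and its limma adjusted p 5.35e-05.

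Sequence upstream of Atp2b1 and Fxyd1, which differed by adjusted p alone, is printed to show their annotated start regions. Each run holds the 250 bases before the start that RefSeq annotates on GRCr8, from 5′ to 3′ on the strand of the gene, at chr7:35622211-35622460 (+) for Atp2b1 and chr1:95418581-95418830 (−) for Fxyd1. Capitals mark CG dinucleotides. GRCr8 is not the build of the expression values, and each window stands for 1 annotated start only.
Atp2b1: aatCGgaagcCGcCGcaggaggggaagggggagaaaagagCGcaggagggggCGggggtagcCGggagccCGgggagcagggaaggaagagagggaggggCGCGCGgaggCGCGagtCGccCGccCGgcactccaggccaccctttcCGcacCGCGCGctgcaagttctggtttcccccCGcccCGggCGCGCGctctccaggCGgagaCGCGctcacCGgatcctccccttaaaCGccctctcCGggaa
Fxyd1: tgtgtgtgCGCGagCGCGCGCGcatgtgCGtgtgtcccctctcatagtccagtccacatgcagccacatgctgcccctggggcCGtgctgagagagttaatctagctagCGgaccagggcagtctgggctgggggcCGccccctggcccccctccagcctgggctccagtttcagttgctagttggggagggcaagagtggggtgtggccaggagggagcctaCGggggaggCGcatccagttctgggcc

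The Atp2b1 window had 72.8% G and C and 30 CG dinucleotides, a number that 94.7% of all 33469 RefSeq windows fall short of. Fxyd1 had 66.8% and 12, a number that 68.5% of the windows fall short of, with a repeat of CG and TG letters at its 5′ end. The medians over all windows were 51.2% and 5. Of the 8 genes, 7 have a window in the RefSeq table; Atp1b1 has none there. The windows of Slc8a1 and Slc8a2 were set aside after they were read. Each lies directly before what reads as the first coding exon and need not be a promoter. In the Slc8a1 window the letters of a splice acceptor, CAG, come first after the annotated start. NR4A2 is a DNA-binding receptor whose family recognises the letters AAAGGTCA, the NBRE, as a monomer. Over 300 bases, of which 50 follow the start, the NBRE was searched on both strands, as was its core AGGTCA, which lies within the NBRE. Neither was found in the windows of the other 5 genes, beside 1.43% of all windows with the NBRE and 16.2% with the core. The absence says only that these letters are not in these windows.

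Ordered by mean FPKM over the 12 samples, Fxyd1 came first. It was at 467 and ranked 268 among 10950 genes, Atp1b1 at 286 (rank 398), Slc8a1 at 72.9 (rank 1457), and Atp2b1 at 11.8 (rank 5353). Atp2b2 followed at 0.501 (rank 9480), Atp2b4 at 0.174 (rank 10277), Slc8a2 at 0.0373, and Slc8a3 at 0.0307, and the values of Slc8a2 and Slc8a3 overlapped. The ratio of Slc8a1 to Atp2b1, per length, was 4.35 ± 0.681 in Ad-GFP and 7.66 ± 0.892 in Ad-h-NR4A2 samples.

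The same pair of numbers marked the ends of the range for several of these genes. Number 28 had the lowest value of Slc8a1, Atp1b1, and Fxyd1 in both groups, and number 27 the highest of these 3. After centring each group on its mean, log2 values of Slc8a1 and Atp1b1 had a Pearson correlation of 0.949 over the 12 samples, those of Slc8a1 and Fxyd1 of 0.813, and those of Slc8a1 and Atp2b1 of 0.0957. Without number 28 the respective values over 10 samples were 0.926, 0.596, and 0.645. These values describe how the samples lie, and the 12 points are not independent, since they form 6 same-numbered pairs.

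In the same centred values, genes averaging 1 FPKM or more whose pattern was most like that of Slc8a1 were Tmem106c (r = 0.984), Atp5d (0.965), and LOC100363521 (0.959), among 8977 genes compared over 12 samples. Most like Atp1b1 were Ptrf (0.968), Ctsh (0.966), and Dusp7 (0.965), and most like Fxyd1 were Naa20 (0.979), Trim47 (0.956), and Nucks1 (0.954). Atp2b1 was closest to Etv3 (0.915), Trafd1 (0.903), and Prkaa1 (0.898). For the low genes the highest values were 0.917 (Atp2b2 with Uqcrc1), 0.880 (Slc8a3 with Man2a1), 0.863 (Atp2b4 with Tm4sf1), and 0.839 (Slc8a2 with Usp16). Slc8a2 and Slc8a3 had at most 8 fragments per sample, and what counting error adds to these patterns was not tested.

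To place the 8 genes among other genes of related functions, 48 further genes in 6 lists were examined. The lists held genes named as Na/K pump subunits, partners of the calcium pump, other Na/Ca exchangers, Na/H exchangers, bicarbonate transporters, and cation-chloride cotransporters. All 48 are listed in the tables, 33 were tested, and 8 were differentially expressed, 2 as a rise and 6 as a fall, beside the 15.2% of all genes. The median log2 fold change over the 33 was -0.30.

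Among 8 further Na/K pump genes tested, 1 rose and 1 fell, both of the β type. Atp1b3, which encodes β3, fell from 51.7 ± 4.76 to 32.5 ± 2.99 FPKM (SD, n = 6), a ratio of 0.627, and its log2 fold change was -0.67 with an SE of 0.072 (limma, adjusted p = 7.44e-06). Atp1b4, a β-like gene of muscle, rose from 0.0671 ± 0.0315 to 0.581 ± 0.0835 FPKM, and its log2 fold change was 2.04 with an SE of 0.15 (limma, adjusted p = 1.92e-07). The size of that fold change rests on the pseudocount: it was 0.57 at a pseudocount of 1 and 3.04 at 0.01, and the ratio of mean FPKM was 8.67. Atp1b4 remained far below Atp1b1 and Atp1b3 in FPKM, and whether its product serves as a pump subunit was not tested.

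The ratio of the β subunits was chosen after the single values were seen and is given without a test. Atp1b1 per Atp1b3 was 5.09 ± 0.773 in Ad-GFP and 9.50 ± 0.643 in Ad-h-NR4A2 samples, with ranges of 3.81 to 6.14 and 8.78 to 10.6, and was higher in 6 of 6 pairs.

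**Figure D4:**
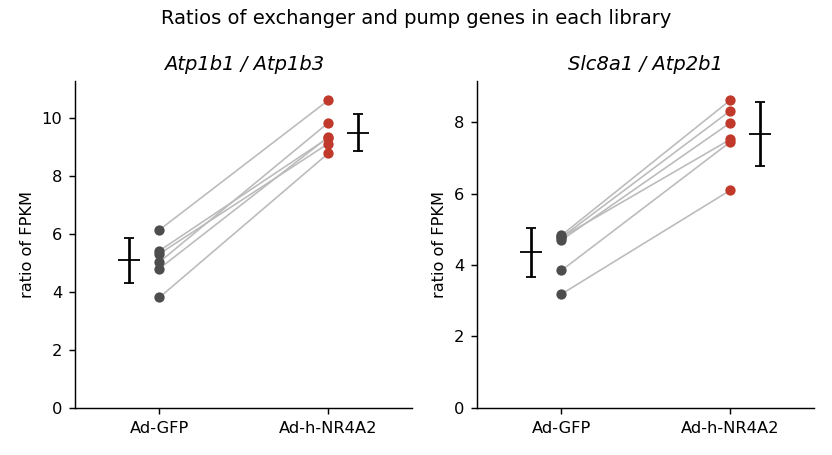
Ratios of FPKM in each library for Atp1b1 per Atp1b3 and for Slc8a1 per Atp2b1, on linear axes from 0; points are samples, grey lines join samples of the same number, and bars give the mean ± SD of 6 samples. Both ratios are higher on the right in all 6 pairs, with means of 9.50 against 5.09 and 7.66 against 4.35.

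In contrast to Slc8a1, the other exchangers tested gave 1 fall of 2 by both limits. Slc24a3, named after its values were seen, was lower by the adjusted p alone. It had 4.80 ± 0.484 and 3.30 ± 0.404 FPKM, a ratio of 0.688 (limma, adjusted p = 6.31e-04). Slc8b1, which encodes the Na/Ca exchanger of the mitochondrial inner membrane, fell from 2.01 ± 0.309 to 1.11 ± 0.267 FPKM (SD, n = 6), and its log2 fold change was -0.82 with an SE of 0.16 (limma, adjusted p = 8.98e-04). The 2 partners of the calcium pump that were tested, Bsg and Nptn, gave 0 differentially expressed genes by limma with the fold limit. Nptn, named after its values were seen, passed the adjusted p alone, at 94.1 ± 3.95 and 76.0 ± 4.28 FPKM (limma, adjusted p = 9.57e-05). Atp2b3 was listed at 0 in at least 1 sample and not tested.

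Cation-chloride cotransporters moved in both directions, with 1 rise and 2 falls among 6 tested. Slc12a2 (NKCC1), which carries sodium, potassium, and chloride into the cell, rose from 4.01 ± 0.240 to 8.26 ± 0.855 FPKM (log2 fold change 1.02). Slc12a7 (KCC4), which carries potassium and chloride outward, fell from 71.9 ± 10.7 to 47.3 ± 7.86 FPKM (log2 fold change -0.61). Slc12a3 (NCC), the sodium-chloride cotransporter of kidney, at 0.195 and 0.118 FPKM, had a log2 fold change of -0.45 with an adjusted p of 0.0363 (limma).

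Of 9 Na/H exchanger genes and binding proteins tested, 1 fell, Slc9a3r2 (NHERF2, a scaffold that binds these exchangers), from 4.76 ± 0.588 to 3.16 ± 0.387 FPKM. With a replicate block 2 more of the 9 passed both limits, Slc9a3 and Slc9a3r1, another such scaffold. Slc9a3 rose at a low level (0.0843 and 0.140 FPKM, limma, adjusted p = 0.0331, against 0.0605 without the block). Slc9a3r1 fell (4.82 and 3.18 FPKM, limma, adjusted p = 1.90e-04, against 0.0915). No share over all genes is given for both limits with the block. By adjusted p alone, the block raised that share from 40.9% to 59.4%, so that added calls are not particular to these genes. Of 6 bicarbonate transporters tested, 1 fell, Slc4a11, from 0.589 ± 0.164 to 0.376 ± 0.0987 FPKM (limma, adjusted p = 0.0361). Slc12a7, Slc12a3, Slc9a3r2, and Slc4a11 had ratios of 0.604 to 0.664 and lost their call when single samples were left out. The calls of Atp1b3, Atp1b4, Slc8b1, and Slc12a2 held in each of these fits.

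**Figure D5:**
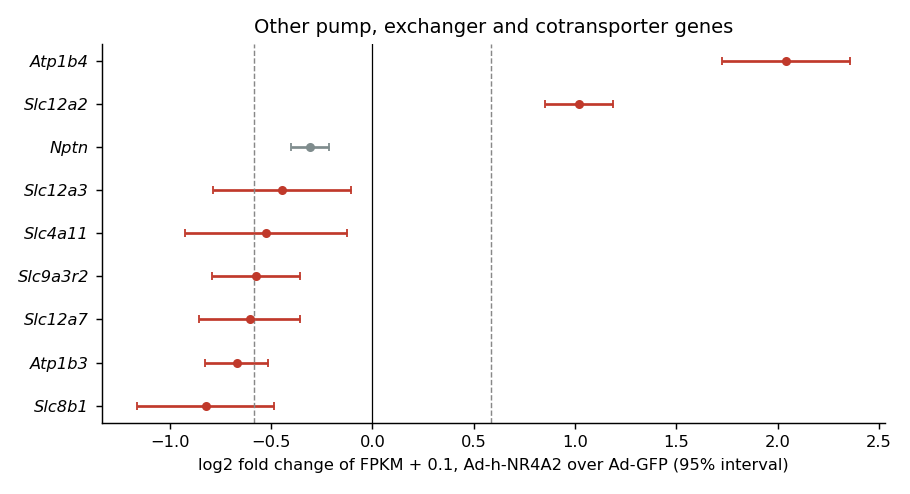
Log2 fold change of FPKM + 0.1 with 95% intervals from limma for the 8 differentially expressed genes of the 6 further lists (red) and for Nptn (grey); dashed lines mark a ratio of 1.5 in either direction. Atp1b4 and Slc12a2 lie to the right and Slc8b1, Atp1b3, Slc12a7, Slc9a3r2, Slc4a11, and Slc12a3 to the left.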

How the data were processed

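RNA of 12 ARVM cultures was sequenced in 1 run from stranded mRNA libraries with paired-end reads, which the authors aligned to Rn5 with STAR. FPKM values deposited by the authors come from Cufflinks, per RefSeq transcript; they are not counts, and no normalization was added. Groups come from the sample labels. The genes and lists were chosen with earlier results of these data known. Of several transcripts under a gene name, the one highest on average stood for the gene, and the 10950 genes that exceeded 0 in every sample were kept.

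Log2(FPKM + 0.1) was compared with limma 3.58.1 in R 4.3.3 (lmFit, eBayes with trend, two-sided, no block, Benjamini-Hochberg over all genes), and tested on simulated data. The pseudocount understates changes of low genes. Single values were compared with a two-sided exact permutation test. Transcripts, and their usage against the rest of their gene, were fitted in the same way. Deviations of same-numbered samples correlated at 0.347 to 0.623, and the study describes 6 independent experiments. The numbers 24 to 29 were therefore taken as pairs, although neither labels nor study say that a number marks 1 rat or experiment.

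Fragments were recovered from low values of transcripts of at least 800 nucleotides; 99.2% to 99.8% of values of at most 6 fragments were whole within 0.05. They are given where a gene has 1 transcript and show counting error alone. The genes named are all 8 genes, the differentially expressed genes of the 6 lists, and for each of the 8 the 3 genes most like it; some genes of the lists are not reported here. Nptn, Slc24a3, Atp1b2, Slc9a3, Slc9a3r1, the ratios, and the CG dinucleotides were added after values were seen. Alternatives were pseudocounts of 1 and 0.01, no filter and a mean FPKM of at least 1, TPM and quantile scaling, no trend, summed transcripts, other fold limits, the block, and each sample left out. Python 3.11.15, pandas 2.3.3, and Matplotlib 3.10.9 made tables and plots.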

Additional observations from a re-analysis of the deposited data

Results flagged for a closer look

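In 34 sets of 6 samples, the lowest or highest sample was compared with the rest of its group by Dixon's gap test at the 95% level; chance alone passes about 1 set in 20. Of the 34 sets 2 passed, a number near that rate. Both were sets of Fxyd1, through number 28. It was at 419 FPKM in Ad-GFP (group median 508, gap 0.647 of the range) and 365 in Ad-h-NR4A2 (median 445, gap 0.740). The ratio of Ad-h-NR4A2 over Ad-GFP within number 28 was 0.872 for Fxyd1, inside the range of the other pairs.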

How the results depend on the processing

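Slc8a1 was differentially expressed in all 22 alternatives, with a log2 fold change of 1.09 to 1.19. Without a fold limit 3 of the 8 genes and 18 of the 33 further genes differed, beside 40.9% of all genes tested. With the replicate block as well, chosen after seeing the data, 4 and 22 differed, beside 59.4% of all genes. At a limit of 2, 2 of the 33 did, and with a mean FPKM of at least 1, which drops low genes, 5. No share over all genes is given for the other settings of this paragraph. Leaving out 1 sample at a time gave 1 to 1 of the 8 genes and 5 to 9 of the 33 (8 with all samples), with 5 without Ad-GFP 24, Ad-GFP 28, or Ad-h-NR4A2 26. It gave 2 to 3 Slc8a1 transcripts by themselves. Usage changed in 7 Slc8a1 transcripts at a pseudocount of 1, in 0 at 0.01, in 2 without both samples numbered 28, and in 1 to 2 with 1 sample left out. With the replicate block, Atp1b1 alone of the 8 genes changed its side of the limma adjusted p (0.131 to 7.03e-04), and it stayed below the fold limit. It also passed the adjusted p without Ad-GFP 27 (0.0468). Fxyd1 lost the adjusted p without Ad-GFP 25, 26, 27, or 29 (0.0515 to 0.0606). By both limits, the block changed no call among the 8 genes. Of the 33 it added Slc9a3 and Slc9a3r1 to those past both limits (10 in all).

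The log2 fold change of Atp2b4 was -0.026 at a pseudocount of 0.01, -0.018 on the TPM scale, -0.040 after quantile normalization, and -0.15 to 0.11 with 1 sample left out. Usage of NM_019268 was -0.034 at a pseudocount of 0.01, -0.12 without both samples numbered 28, and -0.081 to 0.13 with 1 sample left out; that of NM_001270776 was -0.31 at a pseudocount of 1 and -0.091 to 0.19 with 1 sample left out. A mean FPKM of at least 1 drops Slc8a2, Slc8a3, Atp2b2, and Atp2b4 from the test. The numbers 24 to 29 carry no further label. The p-values compare Ad-h-NR4A2 with Ad-GFP and rest on the values of these 12 samples alone.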
